A study of Danio rerio with 6 samples.

Results

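The genes described here act in the ubiquitin-proteasome system of the zebrafish blastula, and they comprise proteasome subunits, ubiquitin-conjugating enzymes, parts of ubiquitin ligases and ubiquitin-specific proteases. A gene belonged to the set when its Ensembl identifier carried a matching symbol in the rows read of the study's spreadsheet of genes. Such a symbol started with psma to psmg, usp, ube2, ube3, ube4, rnf, trim, fbxo, fbxl, fbxw, cul or klhl, or was zswim8. This rule gave 102 of the 32054 genes in the count table: 20 proteasome genes, 8 conjugating enzymes, 26 cullin and F-box genes, 11 Kelch-like, 14 RING finger and 10 tripartite motif genes, 12 ubiquitin-specific proteases and zswim8. RNA was sequenced from pools of mondoa-mo embryos, which were injected with a morpholino that blocks translation of mondoa, and of mondoa-mis embryos, which received a mismatch control morpholino, both given into the yolk at the 1-cell stage (n = 3 libraries each, whole embryos at 4 hpf, when the controls had reached sphere stage). MondoA is a glucose-responsive transcription factor, and the comparison asks which transcripts differ when its translation is blocked before epiboly. No label says that the pools of a group came from separate clutches or days, so that p-values measure the spread between these libraries, which may be technical.

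Ubiquitin is passed from an activating enzyme to a conjugating enzyme and then, with the help of a ligase, to a substrate protein. Most ligases named here are RING finger proteins or cullin-RING ligases, in which a cullin holds the catalytic part at one end and an exchangeable substrate receptor, such as an F-box or Kelch-like protein, at the other. Chains of ubiquitin direct substrates to the proteasome, whose barrel-shaped 20S core cuts proteins and whose 19S cap recognises and unfolds them, while ubiquitin-specific proteases take ubiquitin off again. In the early embryo this system takes part in clearing maternal proteins and in driving the cell cycle.

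Most of the set was chosen by the very comparison described. The spreadsheet has a sheet ranked by the significance of mondoa-mo against mondoa-mis, of which 1999 rows were read. Of the 102 genes, 68 stand in these rows, so that their differences are given as a description without a test. A further pair of sheets, on another experiment and in the order of gene identifiers, was read for 1999 and 836 rows. They name 42 of the genes, of which 8 are also in the ranked sheet. Here and below, a sheet stands for the rows read of it. Being named in these sheets does not depend on this comparison, and for these 42 genes the adjusted p is given. Of the set's genes in the ranked sheet, usp42 and rnf111 had the largest p in the test run here, with log2 fold changes of -0.39 and -0.38. Of the genes named only in the other sheets, rnf150b and trim3b had the smallest p, with 0.31 and 0.43. By p in this test rnf150b ranked 2208, ahead of rnf111 (2453) and usp42 (2702), so its order is not that of the sheet.

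Between 20685326 and 32100726 reads per library were assigned to genes. Levels are given as read counts scaled to a common library size (CPM) by the trimmed mean of M values (TMM), and a gene was called when its adjusted p was under 0.05. The mondoa-mo libraries differed more among themselves than the mondoa-mis libraries did, with a biological coefficient of variation of 0.110 in mondoa-mo and 0.0189 in mondoa-mis. Between pairs of mondoa-mis libraries the chi-square per degree of freedom was 1.31 to 1.67, little above the noise of counting. Between pairs of mondoa-mo libraries it was 9.79 to 14.9. The test took the spread of a gene as shared by both groups. Transcripts of mondoa itself, listed as MLXIP, were at 298, 327 and 349 CPM in mondoa-mo and 278, 273 and 267 CPM in mondoa-mis embryos. They were called higher in mondoa-mo (log2 fold change 0.25, adjusted p = 0.0074), which is no check of a morpholino that acts on translation. The summed levels of several marker lists differed between the groups. Over all genes 32.3% were called. In the enveloping layer, maternal oocyte and yolk syncytial layer lists it was 33.3% of the genes tested. In the early zygotic list it was 77.8% and in the germ plasm list 83.3%. The 6 enveloping layer genes tested summed to between 100.1 and 157 CPM in mondoa-mo and between 188 and 197 CPM in mondoa-mis embryos, with 1 gene called higher and 1 lower. The 9 early zygotic genes tested summed to between 542 and 639 CPM in mondoa-mo and between 341 and 349 CPM in mondoa-mis embryos, with 5 called higher and 2 lower. The 6 maternal oocyte transcripts tested summed to between 808 and 951 CPM in mondoa-mo and between 1097 and 1124 CPM in mondoa-mis embryos, with 1 gene called higher and 1 lower. The 6 germ plasm genes summed to between 949 and 1081 CPM in mondoa-mo and between 1160 and 1166 CPM in mondoa-mis embryos. Of these, 4 were called higher and only the most abundant, buc, which is also in the maternal list, was called lower. The 3 yolk syncytial layer genes tested summed to between 16.6 and 28.7 CPM in mondoa-mo and between 13.5 and 15.0 CPM in mondoa-mis embryos, with 1 gene called higher. The enveloping layer keratin cyt1l was at 0 in every library. The part of these shifts in the results below was not tested, and in whole embryos fewer cells of a type cannot be told apart from less RNA per cell.

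Of the 102 genes, 97 had enough reads to be tested and 76 were called, 36 of them higher and 40 lower in mondoa-mo embryos. Over all genes 32.3% of 15511 were called, but with 68 of the 76 calls fixed by the choice of the set, the count says nothing about the set. The groups lay apart, with no overlap of their CPM, for 82 of the 97 genes (47.8% over all genes), and 3 called genes were higher and 6 lower by at least 1 on the log2 scale (3.92% over all genes in either direction), which the same choice fixes. The genes named in the sheets ordered by identifier are free of this choice: 16 of the 37 tested (43.2%) were called, 9 higher (24.3%) and 7 lower (18.9%). Over all genes 16.9% were higher and 15.4% lower, and of the 8900 genes whose mean reached 10 CPM, 41.3% were called. The median log2 fold change of these 37 genes was 0.08, beside 0.00 over all genes tested. The number called fell to 10 without mondoa-mis library 1 and to 10 without mondoa-mis library 2. The 5 genes not tested were klhl10a, klhl32, usp28 and the immunoproteasome subunits psmb8a and psmb9a, none of which had more than 9 reads in a library.

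**Figure D1:**
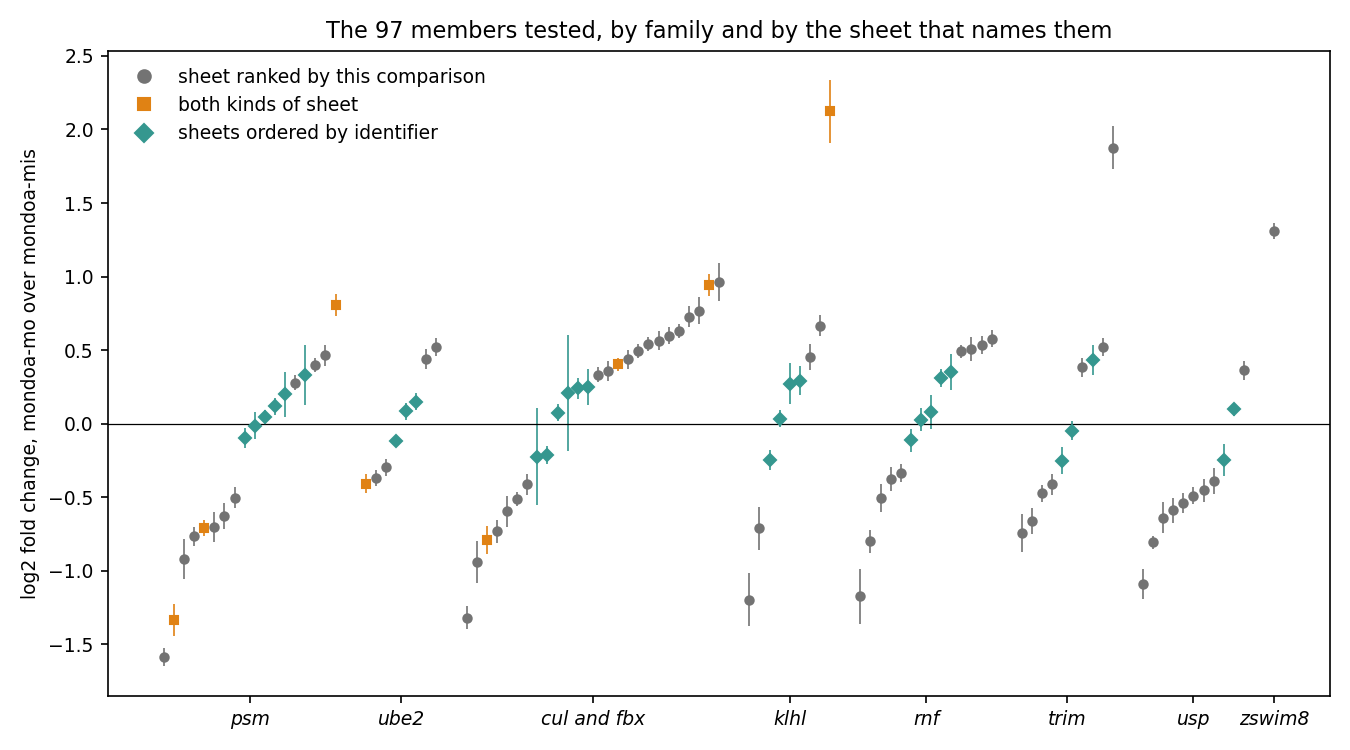
Log2 fold change of mondoa-mo over mondoa-mis with its standard error (bars) for the 97 genes tested, grouped by family on the horizontal axis and sorted within it. Grey circles are genes of the sheet ranked by this comparison, orange squares genes of both kinds of sheet and green diamonds genes of the sheets ordered by identifier, which lie between -0.25 and 0.43.

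The proteasome gene that differed most was psma6a, an alpha subunit of the 20S core. It was at 22.3, 23.3 and 24.6 CPM in mondoa-mo embryos, against 72.1, 68.8 and 69.4 CPM in mondoa-mis embryos. The groups lay far apart, each with a narrow range, and the level was 3.00-fold lower in mondoa-mo embryos (log2 fold change -1.59, SE 0.06). Per kilobase of transcript, psma6a was the 7th most abundant of the 51 proteasome genes tested in mondoa-mis embryos, with 67.7 ± 1.72 CPM per kilobase, and had 22.6 ± 1.12 CPM per kilobase in mondoa-mo embryos (SD, n = 3 each). Its relatives PSMA6 and psma6l were at 2.74 ± 0.44 and 0.42 ± 0.13 CPM in mondoa-mo and 3.60 ± 0.75 and 0.64 ± 0.13 CPM in mondoa-mis embryos (SD, n = 3 each), and neither was called.

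A second core subunit, psmb1, was also lower in mondoa-mo embryos. Its level was 6.94, 6.77 and 6.59 CPM in mondoa-mo, against 15.7, 16.1 and 19.5 CPM in mondoa-mis embryos. Every mondoa-mo library was below every mondoa-mis library, and psmb1, which the sheets ordered by identifier also name, was called with a log2 fold change of -1.33 (SE 0.11, adjusted p = 1.75e-05). In RefSeq's annotation psmb1 overlaps nrxn1b, and reads from the pair may not have been told apart.

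All 3 of the core's catalytic beta subunits are in the set. psmb5, which carries the chymotrypsin-like activity, had 32.8, 31.0 and 34.6 CPM in mondoa-mo and 56.7, 54.6 and 56.3 CPM in mondoa-mis embryos. psmb7, with the trypsin-like activity, had 35.6, 31.8 and 34.8 CPM in mondoa-mo and 51.4, 47.2 and 46.2 CPM in mondoa-mis embryos. Neither overlapped between the groups, as for all 68 genes of the set in the ranked sheet. The log2 fold changes were -0.77 (SE 0.06) for psmb5 and -0.50 (SE 0.07) for psmb7. psmb6, with the caspase-like activity, was counted at only 3.40 ± 0.45 CPM in mondoa-mo and 2.96 ± 0.14 CPM in mondoa-mis embryos (SD, n = 3 each) and was not called (log2 fold change 0.20, adjusted p = 0.359).

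Of the other core subunits, psma3 was at 24.9, 20.3 and 24.4 CPM in mondoa-mo and 34.3, 37.1 and 36.4 CPM in mondoa-mis embryos (log2 fold change -0.63, SE 0.09). psma5 was at 95.0, 92.7 and 102.7 CPM in mondoa-mo and 86.3, 88.4 and 93.1 CPM in mondoa-mis embryos, overlapped between the groups and was not called (0.12, adjusted p = 0.141). psma8 went the other way, with 39.5, 38.3 and 43.4 CPM in mondoa-mo, against 22.4, 22.7 and 24.3 CPM in mondoa-mis embryos. In mammals PSMA8 is the alpha subunit of a proteasome found in the testis. The zebrafish gene was higher in all 3 mondoa-mo libraries, by 0.80 on the log2 scale (SE 0.08, adjusted p = 3.99e-05).

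In the 19S cap, psmd1, the large scaffold subunit, was lower. It had 136, 119 and 129 CPM in mondoa-mo, against 213, 204 and 212 CPM in mondoa-mis embryos. The groups did not overlap, and psmd1 was called with a log2 fold change of -0.71 (SE 0.05, adjusted p = 1.22e-05), although its span in RefSeq's annotation holds 4 other protein-coding genes. psmc1a, an ATPase of the ring that unfolds substrates, had 11.4, 9.95 and 11.8 CPM in mondoa-mo and 16.9, 17.6 and 19.7 CPM in mondoa-mis embryos (log2 fold change -0.70, SE 0.10). Its paralogue psmc1b was at 15.9 ± 0.92 CPM in mondoa-mo and 16.04 ± 0.72 CPM in mondoa-mis embryos (SD, n = 3 each) and was not called.

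The remaining cap genes of the set were higher in mondoa-mo embryos or did not pass. psmd14, the deubiquitinase that strips ubiquitin from arriving substrates, had 106, 102 and 109 CPM in mondoa-mo and 80.8, 79.2 and 80.0 CPM in mondoa-mis embryos (log2 fold change 0.40, SE 0.05). psmd3 had 53.5, 47.0 and 54.2 CPM in mondoa-mo and 37.7, 38.5 and 35.8 CPM in mondoa-mis embryos (0.47, SE 0.07). The ATPase psmc4 had 224, 200.4 and 217 CPM in mondoa-mo and 176, 173 and 180.5 CPM in mondoa-mis embryos (0.28, SE 0.05). In none of these 3 did the groups overlap, as for all 68 genes of the set in the ranked sheet. The uncalled cap genes were psmc3 (0.05, adjusted p = 0.470), psmd11b (-0.10, adjusted p = 0.293) and psmd9, an assembly chaperone (-0.01, adjusted p = 0.928), and for each the groups overlapped.

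Outside core and cap, psmg2, a chaperone that helps to assemble the alpha ring, had 2.85, 3.36 and 3.00 CPM in mondoa-mo and 5.36, 5.79 and 6.23 CPM in mondoa-mis embryos. The groups were apart, as for all 68 genes of the set in the ranked sheet. The log2 fold change was -0.92 (SE 0.14). The activator subunit psme1 was at 2.60 ± 0.33 CPM in mondoa-mo and 2.09 ± 0.48 CPM in mondoa-mis embryos (SD, n = 3 each) and was not called (0.33, adjusted p = 0.249).

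**Figure D2:**
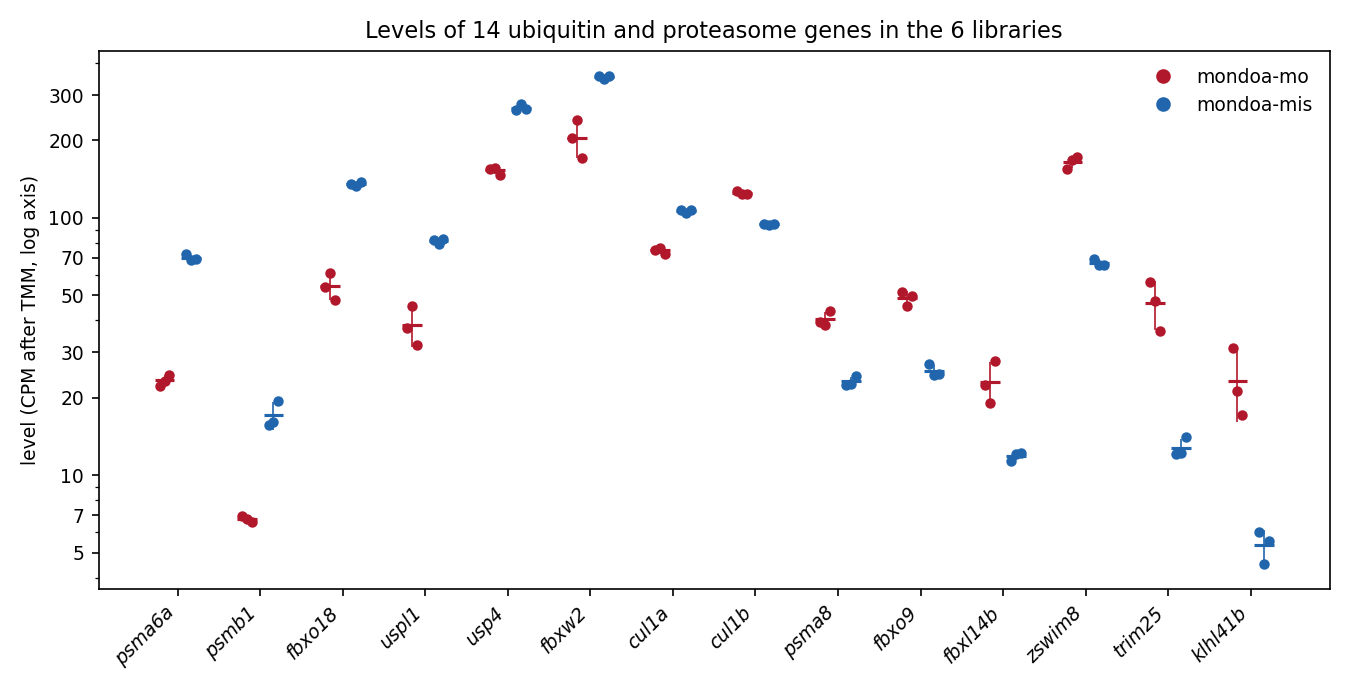
Levels of 14 genes of the set in each library, in CPM on a log axis, with mondoa-mo (red) left of mondoa-mis (blue). Points are libraries, horizontal bars are means and vertical lines are 1 SD (n = 3 each). The groups do not overlap for any of the 14 genes, all of them from the ranked sheet, where this holds for all 68 genes of the set. psma6a lies at 22.3 to 24.6 CPM in mondoa-mo, and at 68.8 to 72.1 CPM in mondoa-mis.

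A look at all proteasome genes places these members. A gene name table keyed by Ensembl identifier gave 57 genes with a proteasome symbol, of which 20 were in the set. Of the 51 tested, 21 (41.2%) were called, 11 higher and 10 lower in mondoa-mo embryos. Scaled by library size alone, 10 were higher and 14 lower. The 37 proteasome genes outside the set are those that no row read of the study's sheets names with such a symbol. This does not mean that the full sheets lack them. Of the 33 tested, 9 were called, 7 higher and 2 lower, which is what remains once the genes named there are taken out.

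The called core genes were mostly lower and the called cap genes mostly higher. Of the 17 core genes tested (alpha genes and beta 1 to 7), 8 (47.1%) were called, 6 lower and 2 higher, with a median log2 fold change of -0.21. Of the 22 cap genes tested, 10 (45.5%) were called, 8 higher and 2 lower, with a median of 0.05, and 6 were called without mondoa-mis library 3. The cap genes include PSMD5, psmd9 and PSMD10, which are assembly chaperones and no subunits of the finished particle. These 39 genes were listed by symbol, whatever this comparison gave, although 11 of them are in the ranked sheet. The difference between core and cap was not tested. Both shares lie above the 32.3% over all genes and near the 41.3% of genes whose mean reached 10 CPM. Among the 11 core genes that the ranked sheet does not name with a proteasome symbol, 1 was lower (PSMA2) and 1 higher (psma2a).

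The summed level of the core was lower in mondoa-mo embryos. The 17 core genes together were at 489, 471 and 520 CPM in mondoa-mo embryos, against 572, 568 and 595 CPM in mondoa-mis embryos, so that every mondoa-mo library was below every mondoa-mis library, at a ratio of 0.853. The 6 core genes of the ranked sheet, psma6a among them, summed to 162, 151 and 168 CPM in mondoa-mo and 253, 246 and 252 CPM in mondoa-mis embryos. The other 11 core genes summed to 327, 319 and 351 CPM in mondoa-mo and 319, 322 and 343 CPM in mondoa-mis embryos, which overlapped. This split follows the significance of the same comparison, so it cannot show whether the lower sum is confined to some core genes. Without psma6a alone, the ratio of the core was 0.924. The 22 cap genes summed to 1561, 1501 and 1571 CPM in mondoa-mo and 1529, 1530 and 1554 CPM in mondoa-mis embryos, at a ratio of 1.004.

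Among the proteasome genes outside the set, the alpha subunit PSMA2 was lower in mondoa-mo embryos (19.3 ± 1.23 CPM in mondoa-mo, 23.9 ± 1.23 CPM in mondoa-mis, SD, n = 3 each; log2 fold change -0.31, adjusted p = 0.0165). PSMA2 was no longer called without mondoa-mis library 2 (-0.31, adjusted p = 0.0685) or mondoa-mis library 3 (-0.27, adjusted p = 0.0918). Its paralogue psma2a was higher, with 29.5 ± 2.57 CPM in mondoa-mo and 22.7 ± 0.52 CPM in mondoa-mis embryos (0.37, adjusted p = 0.0062), a gene singled out after its values were seen because of this pairing. Both genes of the ubiquitin receptor PSMD4 were higher, PSMD4 by 0.44 (adjusted p = 0.0073) and psmd4b by 0.48 (adjusted p = 0.0135) on the log2 scale, although psmd4b did not pass without mondoa-mis library 3 (0.39, adjusted p = 0.0690). PSMB10, the inducible counterpart of a catalytic subunit, was higher by 0.92 (SE 0.22, adjusted p = 0.0108) at 4.16, 2.303 and 3.30 CPM in mondoa-mo and 1.76, 1.66 and 1.81 CPM in mondoa-mis embryos. One of the 2 genes listed as PSME4, a nuclear activator of the core, was lower (ENSDARG00000087911, log2 fold change -0.22, adjusted p = 0.0472). It was not called by DESeq2 (adjusted p = 0.0859), without mondoa-mo library 3 (adjusted p = 0.0720) or without any one mondoa-mis library (adjusted p between 0.108 and 0.172). Per kilobase it was at 2.77 ± 0.09 CPM in mondoa-mo and 3.22 ± 0.10 CPM in mondoa-mis embryos (SD, n = 3 each). The other PSME4 gene was at 35.3 ± 1.23 CPM per kilobase in mondoa-mo and 32.8 ± 0.27 in mondoa-mis embryos, and was not called.

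**Figure D3:**
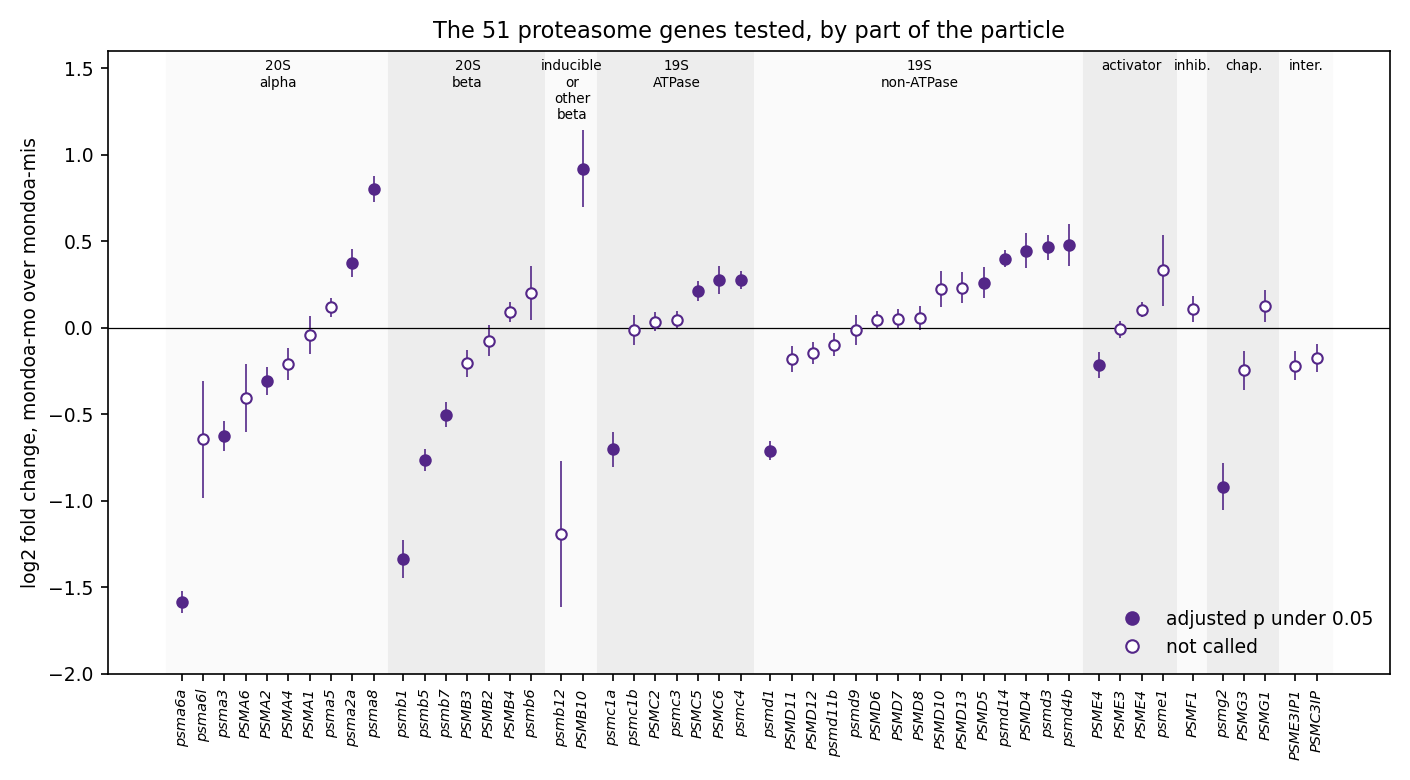
Log2 fold change of mondoa-mo over mondoa-mis with its standard error (bars) for the 51 proteasome genes tested, arranged by part of the particle. Filled points passed an adjusted p of 0.05 and open points did not, and called core genes lie mostly below 0 while called cap genes lie mostly above it. Genes of the ranked sheet are all filled, since that sheet is ordered by the significance of this comparison. The labels inhib., chap. and inter. stand for inhibitor, assembly chaperone and interacting proteins that are no subunits.

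Among ligase parts, zswim8 stood out. It encodes the substrate receptor of a cullin-RING ligase that is known for the decay of microRNAs directed by their targets. It was at 155, 168 and 173 CPM in mondoa-mo embryos, against 69.3, 65.4 and 65.4 CPM in mondoa-mis embryos. The groups were 2.48-fold apart (log2 fold change 1.31, SE 0.06), and no other gene overlaps zswim8 in RefSeq's annotation.

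All 26 cullin and F-box genes of the set were tested, and 14 were higher and 8 lower in mondoa-mo embryos. In this family and those below, most calls within the set were fixed by the ranked sheet. By the name table the whole family had 71 genes tested, of which 36 (50.7%) were called, 20 higher and 16 lower. Over all genes 32.3% were called, and 41.3% of those whose mean reached 10 CPM. The F-box helicase gene fbxo18 had the lowest value of the set's family, with 53.8, 60.9 and 48.0 CPM in mondoa-mo, against 135, 133 and 138 CPM in mondoa-mis embryos. The groups were far apart, with a log2 fold change of -1.32 (SE 0.08). fbxw9 was next, at 5.60, 6.96 and 4.76 CPM in mondoa-mo and 12.1, 10.2 and 10.8 CPM in mondoa-mis embryos (-0.94, SE 0.14), and overlaps gng14 in RefSeq's annotation. fbxw2 was far more abundant, with 204, 239 and 171 CPM in mondoa-mo and 356, 348 and 357 CPM in mondoa-mis embryos. Its mondoa-mo libraries spread widely but stayed below the others, and fbxw2, named also by the sheets ordered by identifier, was called (-0.79, SE 0.10, adjusted p = 1.88e-04).

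At the upper end, fbxl14b had 22.3, 19.2 and 27.9 CPM in mondoa-mo and 11.4, 12.1 and 12.2 CPM in mondoa-mis embryos (log2 fold change 0.96, SE 0.13). FBXL14 proteins are known for the turnover of Snail family transcription factors, and fbxl14b overlaps wnt5b in RefSeq's annotation. fbxo9 had 51.6, 45.6 and 49.8 CPM in mondoa-mo and 27.1, 24.5 and 24.8 CPM in mondoa-mis embryos, without overlap, and was called with a log2 fold change of 0.94 (SE 0.07, adjusted p = 1.31e-05), though other genes lie within its annotated span.

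Several F-box genes with roles in the cell cycle differed in both directions. fbxw7, the receptor for cyclin E and Myc, had 202, 189 and 173 CPM in mondoa-mo and 128, 120.0 and 125 CPM in mondoa-mis embryos (log2 fold change 0.60). fbxo5, which inhibits the anaphase-promoting complex before mitosis, had 93.8, 86.5 and 92.7 CPM in mondoa-mo and 63.8, 64.7 and 73.1 CPM in mondoa-mis embryos (0.44). fbxo43, its relative that holds the egg in meiotic arrest, had 97.3, 106 and 82.5 CPM in mondoa-mo and 161, 156 and 157 CPM in mondoa-mis embryos (-0.73). No pair of groups overlapped among these genes, as for all 68 genes of the set in the ranked sheet. These F-box genes were singled out for their roles after their values were seen.

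The scaffolds themselves differed, and the paralogues of cul1 did so in opposite directions. cul1a had 75.3, 76.5 and 72.3 CPM in mondoa-mo and 108, 105 and 107 CPM in mondoa-mis embryos (log2 fold change -0.51, SE 0.05). cul1b had 127, 123 and 124 CPM in mondoa-mo and 94.3, 94.0 and 94.6 CPM in mondoa-mis embryos (0.40, SE 0.04, adjusted p = 1.10e-04). Per kilobase, the sum of cul1a and cul1b was 56.1 ± 0.77 in mondoa-mo and 56.0 ± 0.52 CPM per kilobase in mondoa-mis embryos (SD, n = 3 each), and cul1a made up 36.1% ± 0.76 of it in mondoa-mo and 51.6% ± 0.34 in mondoa-mis embryos. The sum hence differed by less than the spread between libraries while the shares did not overlap. Only reads with a single place in the genome were used, so reads from stretches that paralogues share would be lost. cul3b, the scaffold that holds Kelch-like receptors, had a log2 fold change of 0.49 (SE 0.05) and cul4a one of 0.77 (SE 0.09). cul5b, named only by the sheets ordered by identifier, did not pass (0.25, adjusted p = 0.153).

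The remaining paralogue pairs showed other patterns. fbxl14a (165, 176 and 160.3 CPM in mondoa-mo, 129, 137 and 131 CPM in mondoa-mis embryos, log2 fold change 0.33) and fbxl14b were both higher, and their sum was 88.9 ± 2.34 in mondoa-mo and 67.7 ± 2.01 CPM per kilobase in mondoa-mis embryos (SD, n = 3 each). Of the broadly acting conjugating enzymes, ube2d2 had 101, 93.4 and 96.1 CPM in mondoa-mo and 74.7, 75.3 and 64.3 CPM in mondoa-mis embryos (0.44, SE 0.07). ube2d3 had 71.3, 74.9 and 70.4 CPM in mondoa-mo and 89.2, 93.8 and 96.9 CPM in mondoa-mis embryos (-0.37, SE 0.05). The share of ube2d2 in their sum per kilobase was 40.4% ± 1.56 in mondoa-mo and 27.9% ± 2.45 in mondoa-mis embryos (SD, n = 3 each), with the sum at 102 ± 1.56 in mondoa-mo and 109 ± 2.09 CPM per kilobase in mondoa-mis embryos.

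**Figure D4:**
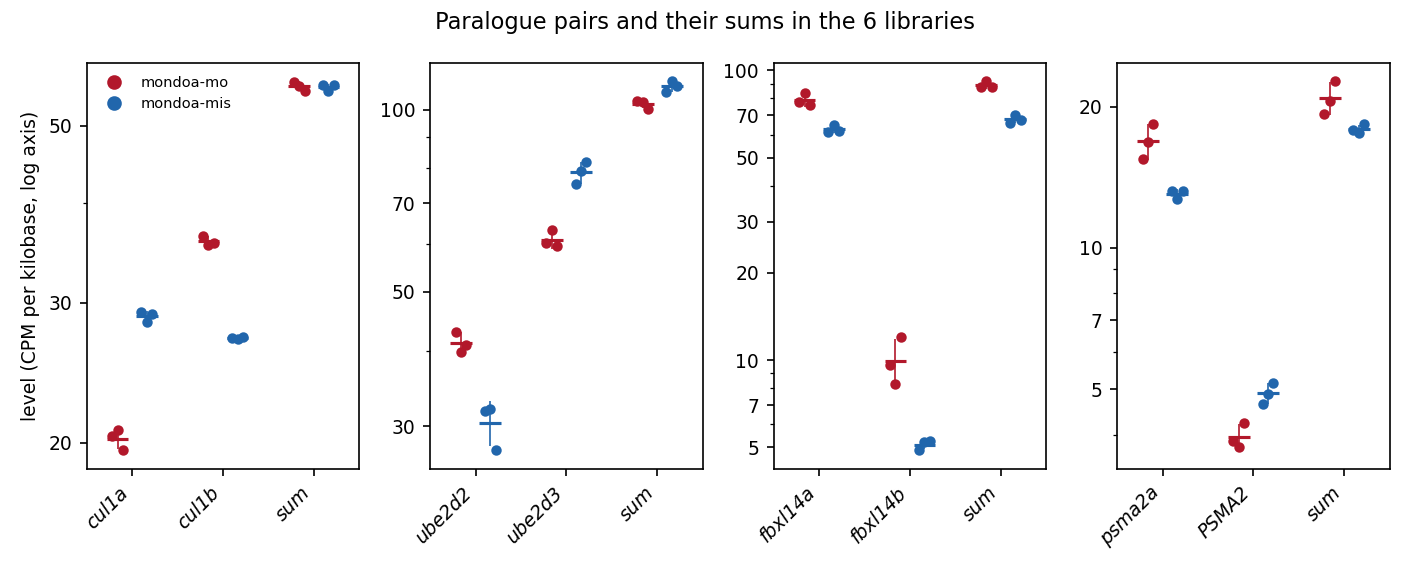
Levels per kilobase of transcript, in CPM on log axes that differ between panels, of 4 paralogue pairs and their sums, with mondoa-mo (red) left of mondoa-mis (blue). Points are libraries, horizontal bars are means and vertical lines are 1 SD (n = 3 each). The members of 3 pairs go in opposite directions, and fbxl14a and fbxl14b go together. Only for cul1a and cul1b do the sums of the groups overlap. The pair psma2a and PSMA2 was drawn after its opposite directions were seen. Pairs not drawn include psmd4b and PSMD4, both higher in mondoa-mo, and psmc1a and psmc1b, of which only psmc1a was called.

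All 8 conjugating enzymes of the set were tested, and 2 were higher and 4 lower in mondoa-mo embryos. Over the ube2, ube3 and ube4 genes of the name table, 15 of 46 (32.6%) were called, 6 higher and 9 lower, beside 32.3% of all genes. ube2s, which lengthens ubiquitin chains on substrates of the anaphase-promoting complex, was the highest of the set at 98.6, 111 and 95.7 CPM in mondoa-mo and 70.6, 72.8 and 69.1 CPM in mondoa-mis embryos (log2 fold change 0.52, SE 0.06). ube2al had the lowest value, with 56.2, 64.1 and 63.0 CPM in mondoa-mo and 78.5, 79.5 and 84.8 CPM in mondoa-mis embryos, and was called (-0.41, SE 0.06, adjusted p = 0.0010). ube2ib, a form of the enzyme that conjugates SUMO rather than ubiquitin, had 225, 227 and 230.3 CPM in mondoa-mo and 246, 249.9 and 246 CPM in mondoa-mis embryos. It was called at a small log2 fold change of -0.12 (SE 0.04, adjusted p = 0.0431). ube2h (0.08, adjusted p = 0.299) and ube2na (0.15, adjusted p = 0.0665) did not pass.

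Of the 9 Kelch-like genes tested, 4 were higher and 3 lower in mondoa-mo embryos. By the name table, 12 of 28 (42.9%) were called, 8 higher and 4 lower. Of all genes, 32.3% were called, and of genes whose mean reached 10 CPM, 41.3%. klhl41b, known from skeletal muscle, had the highest log2 fold change of the whole set. It was at 31.2, 21.3 and 17.2 CPM in mondoa-mo, against 6.01, 4.51 and 5.56 CPM in mondoa-mis embryos. All 3 mondoa-mo libraries were higher despite their spread, at a log2 fold change of 2.12 (SE 0.21, adjusted p = 6.00e-05). The muscle gene myl1 was at 1.45 ± 0.34 CPM in mondoa-mo and 1.87 ± 0.28 CPM in mondoa-mis embryos (SD, n = 3 each) and was not called. In a list of blood, muscle and neural genes, 4 of the 5 entries had too few reads to be tested. This single low value hence says little about muscle RNA. At the other end, klhl5 had 2.78, 1.93 and 2.71 CPM in mondoa-mo and 6.46, 4.81 and 5.94 CPM in mondoa-mis embryos (-1.20, SE 0.18). klhl35 had 8.51, 8.98 and 12.9 CPM in mondoa-mo and 16.8, 16.2 and 16.6 CPM in mondoa-mis embryos (-0.71, SE 0.14), and klhl8 had 71.4, 59.8 and 64.0 CPM in mondoa-mo and 41.5, 40.9 and 40.6 CPM in mondoa-mis embryos (0.67, SE 0.07). For neither gene did the groups overlap, which was a condition for naming them. In RefSeq the annotated span of klhl35 holds 6 other protein-coding genes.

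Of the 14 RING finger genes 6 were higher and 5 lower in mondoa-mo embryos. By the name table, 23 of 69 (33.3%) were called, 13 higher and 10 lower, beside 32.3% of all genes. rnf213b, a very large ATPase with a ligase domain, was low throughout, with 1.98, 1.24 and 1.75 CPM in mondoa-mo and 3.84, 4.00 and 3.56 CPM in mondoa-mis embryos (log2 fold change -1.17, SE 0.19). rnf175 had 15.0, 16.03 and 14.2 CPM in mondoa-mo and 26.0, 26.8 and 26.0 CPM in mondoa-mis embryos (-0.80, SE 0.08). Both were lower in every mondoa-mo library, which was a condition for naming them. rnf146, a ligase that recognises poly-ADP-ribose and is known for the turnover of axin, had 158, 182 and 177 CPM in mondoa-mo and 118, 117 and 111 CPM in mondoa-mis embryos (0.58, SE 0.06). rnf41 had 55.7, 58.2 and 58.0 CPM in mondoa-mo and 40.4, 41.2 and 37.0 CPM in mondoa-mis embryos (0.53, SE 0.06), and overlaps slc39a5. rnf111, which promotes Nodal and TGF-beta signalling, had 296, 286 and 229 CPM in mondoa-mo and 360.2, 342 and 351 CPM in mondoa-mis embryos (-0.38, SE 0.08). rnf2, the catalytic subunit of the Polycomb complex that marks histone H2A, overlapped between the groups and was not called (-0.11, adjusted p = 0.273).

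Among the 10 tripartite motif genes 4 were higher and 4 lower in mondoa-mo embryos. By the name table, 19 of 44 (43.2%) were called, 10 higher and 9 lower. Of all genes, 32.3% were called, and of genes whose mean reached 10 CPM, 41.3%. trim25, whose mammalian counterpart acts in sensing viral RNA, was at 56.5, 47.6 and 36.3 CPM in mondoa-mo, against 12.1, 12.2 and 14.02 CPM in mondoa-mis embryos. The groups were 3.67-fold apart (log2 fold change 1.88, SE 0.15), with mondoa-mo library 3 nearest to the controls. trim37, known for its role at centrosomes, had 127, 144 and 125 CPM in mondoa-mo and 94.1, 90.8 and 91.0 CPM in mondoa-mis embryos (0.52, SE 0.06). trim35-27 was lower at 10.9, 8.20 and 7.68 CPM in mondoa-mo and 14.8, 15.4 and 15.0 CPM in mondoa-mis embryos (-0.75, SE 0.13). trim33l, named after a regulator of Smad signalling, had 55.1, 63.6 and 47.7 CPM in mondoa-mo and 88.5, 87.9 and 86.3 CPM in mondoa-mis embryos (-0.66, SE 0.09). The groups did not overlap for any of these 4 genes, which was a condition for naming them.

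Ubiquitin-specific proteases of the set were mostly lower in mondoa-mo embryos, with 8 of the 11 tested lower and 1 higher. Most of them are in the ranked sheet. Over the name table, 19 of 45 (42.2%) were called, 12 lower and 7 higher, beside 32.3% of all genes. uspl1, which removes SUMO rather than ubiquitin, had 37.3, 45.5 and 31.96 CPM in mondoa-mo, against 82.1, 79.1 and 82.6 CPM in mondoa-mis embryos (log2 fold change -1.09, SE 0.10). usp4 had 155, 157 and 147 CPM in mondoa-mo and 262, 276 and 265 CPM in mondoa-mis embryos (-0.81, SE 0.05). Both were clearly apart between the groups, and a lack of overlap was a condition for naming them. usp14, which sits on the proteasome, had 66.6, 61.2 and 62.7 CPM in mondoa-mo and 86.1, 91.7 and 89.7 CPM in mondoa-mis embryos (-0.49, SE 0.06), and usp30, bound to the outer mitochondrial membrane, had 9.92, 11.4 and 12.6 CPM in mondoa-mo and 18.3, 18.2 and 16.1 CPM in mondoa-mis embryos (-0.64, SE 0.11). The gene that was higher was usp37, which removes ubiquitin from cyclin A, with 437, 417 and 363 CPM in mondoa-mo and 323, 311 and 314 CPM in mondoa-mis embryos (0.36, SE 0.06). usp14 overlaps thoc1 and usp37 overlaps ybey in RefSeq's annotation. usp19 (0.10, adjusted p = 0.112) and usp49 (-0.25, adjusted p = 0.106) were not called.

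Of the genes named by the sheets ordered by identifier, 34 are absent from the ranked sheet, which took out the 8 with the smallest p. Their log2 fold changes are small by that choice, and their count, which it lowers, is a description. Of the 29 tested, 8 (27.6%) were called, 5 higher and 3 lower, beside 32.3% of all genes. trim3b had 12.8, 12.2 and 14.8 CPM in mondoa-mo and 9.85, 9.9985 and 9.60 CPM in mondoa-mis embryos (log2 fold change 0.43, SE 0.10, adjusted p = 0.0087). rnf150b had 39.1, 41.3 and 39.9 CPM in mondoa-mo and 33.4, 32.5 and 31.0 CPM in mondoa-mis embryos (0.31, SE 0.06, adjusted p = 0.0044). In both the groups were apart. rnf145a was called at 0.35 (adjusted p = 0.0486) although mondoa-mo library 2, at 12.9 CPM, lay below mondoa-mis library 1, at 12.96 CPM. The other calls were klhl24b (0.29, adjusted p = 0.0472), fbxo38 (0.24, adjusted p = 0.0235), ube2ib, fbxo8 (-0.21, adjusted p = 0.0252) and the cullin 3 adaptor klhl15 (-0.25, adjusted p = 0.0176). trim13 came nearest to the threshold without passing it (-0.25, adjusted p = 0.0568), with 53.3, 52.7 and 41.3 CPM in mondoa-mo and 57.8, 59.6 and 58.0 CPM in mondoa-mis embryos. In RefSeq's annotation fbxo8 overlaps cep44 and trim13 overlaps spryd7b. Each of these 9 genes except trim3b and rnf150b moved across the threshold in at least 1 of the alternatives run.

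By the name table the same symbol patterns gave 426 genes, of which 355 were tested and 146 (41.1%) called, 76 higher and 70 lower in mondoa-mo embryos. Scaled by library size alone, 62 were higher and 89 lower. Of all genes that have a symbol there, 32.7% were called. Genes of these patterns outside the set are those that no row read of the study's sheets names with such a symbol, which does not mean that the full sheets lack them. The genes that the ranked sheet names are thereby taken out. The count outside the set (71 of 259 tested, 40 higher and 31 lower) is lowered by that choice and is no measure of the family. Without mondoa-mis library 1 the count over all patterns fell to 97 and without mondoa-mis library 3 to 96, and over all genes there were 3119 to 3275 calls, in place of 5017, when any one mondoa-mis library was left out.

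**Figure D5:**
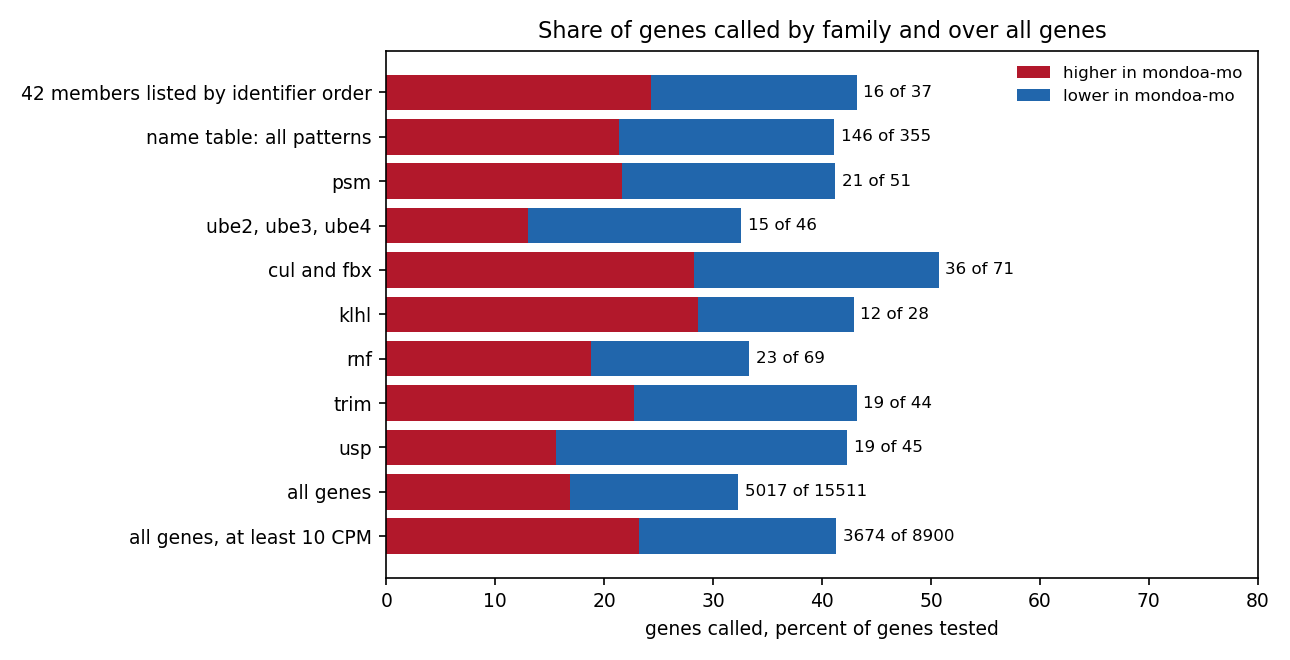
Genes called as a percent of genes tested, higher (red) and lower (blue) in mondoa-mo, for the 42 genes named in the sheets ordered by identifier, for the name table families and for all genes. The bars start at 0, the numbers give genes called of genes tested, and the family bars, which include genes of the ranked sheet, run from 32.6% to 50.7%, beside 32.3% of all genes and 41.3% of genes with at least 10 CPM.

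Ubiquitin genes mostly of other kinds were counted over a list of activating enzymes, ubiquitin-like modifiers, subunits of the anaphase-promoting complex and the COP9 signalosome, and ligases of other families. The list also holds further parts of cullin ligases, deubiquitinases of other families, vcp with its adaptors, proteasome factors such as pomp, and nfe2l1b. Its gene rnf7 is counted among the RING finger genes of the name table as well. Of the 88 tested, 42 (47.7%) were called, 17 higher and 25 lower in mondoa-mo embryos, beside 32.3% of all genes and 41.3% of genes whose mean reached 10 CPM. Their median level in mondoa-mis embryos was 48.9 CPM. nedd8, the modifier that switches cullins on, had 8.10, 6.73 and 6.22 CPM at ENSDARG00000007989 in mondoa-mo, against 20.5, 18.1 and 19.9 CPM in mondoa-mis embryos (log2 fold change -1.47, SE 0.11, adjusted p = 1.25e-05). Another gene listed as nedd8, ENSDARG00000103472, was not called (-0.10). The modifier gene sumo2a (-0.86, adjusted p = 0.0014) and the ligase gene SMURF1, which acts in BMP signalling (-0.74, adjusted p = 1.19e-04), were lower. ubxn4, an adaptor in the degradation of proteins of the endoplasmic reticulum, was higher by 1.34 (adjusted p = 3.91e-05), and the large ligases HUWE1 (0.62, adjusted p = 9.67e-06) and UBR3 (0.61, adjusted p = 1.02e-05) were higher too.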

How the data were processed

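The authors deposited a table of raw counts per gene: read pairs mapped to GRCz11 with STAR 2.3.8 and counted over Ensembl 96 genes (versions per the submitters' processing notes), in 6 poly-A libraries sequenced for 50 nt from each end. Whether counting used strand is not given in the sources used here. From these counts, edgeR 4.0.16 in R 4.3.3 was run with filterByExpr (15511 of 32054 genes), TMM, glmQLFit and glmQLFTest without covariates, with Benjamini-Hochberg adjustment over all genes tested and a threshold of 0.05. The scripts were tested on simulated data. The members and lists were chosen with earlier results of these data known. Named genes were psma6a, zswim8, every proteasome member and 3 paralogue pairs. In each family they included the 2 lowest and 2 highest called members whose groups did not overlap in CPM. Also named were the called members found only in the sheets ordered by identifier. From the wider lists came the 3 lowest and 3 highest called genes. Further genes were singled out after their values were seen. Symbols came from a name table that matched 28986 identifiers, in place of the RefSeq table first planned, whose Ensembl column is empty. RefSeq's GRCz12tu table served only to find overlapping genes. Alternatives were other scaling, filters, DESeq2 1.42.0, a block for replicate numbers and leaving out each library.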

Additional observations from a re-analysis of the deposited data

How the results depend on the processing

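Left out in turn, single libraries gave 3119 to 5832 calls over all genes, 10 to 19 calls among the 37 tested members of the sheets ordered by identifier, 96 to 157 among the 355 genes of the same symbol patterns and 6 to 11 among the 22 genes of the 19S cap. Each of these lowest counts was obtained without 1 of the mondoa-mis libraries, and the cause was not tested. Tested against a log2 fold change of 0.5, 22 members were called, 8 higher and 14 lower. No count over all genes was taken in this test. As most members come from the ranked sheet, these numbers say nothing about the set. Over the 65 named genes and 780 alternative values, 730 kept direction and side of the threshold, 41 lost the call, 6 gained it (all of trim13) and 3 changed sign. The sign changes were those of psmd9, which was not called: 0.0266 without mondoa-mo library 1, 0.0154 without mondoa-mo library 2 and 0.0136 without mondoa-mis library 3, in a range of -0.0905 to 0.0266 when single libraries were left out. Calls were lost at least once for klhl15, rnf145a, fbxo38, ube2ib, fbxo8, klhl24b, psmd4b, PSMA2 and PSME4. Scaled by library size alone, the median log2 fold change of all genes was -0.04, and 2137 genes were higher and 2870 lower. The replicate block gave 5281 calls over all genes, 75 among the members, 15 among those of the sheets ordered by identifier, 145 over the symbol patterns and 21 over the proteasome genes. Deviations of libraries with the same number correlated at 0.172, 0.129 and 0.0622 over 7060 genes, so the numbers were not taken as a pairing, although each mondoa-mo library correlated best with its own number. The motif search was not run, since no promoter sequences were at hand. In genes near 1 CPM the counts limit what can be detected.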

Other observations

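Genes of the same symbol patterns outside the set differed too. Their log2 fold changes ran from -1.75 to 0.92, beside -1.59 to 2.12 in the set. The examples were chosen after their values were seen. RNF157, a RING finger gene, was at 1.28, 1.43 and 2.003 CPM in mondoa-mo and 5.36, 4.85 and 5.56 CPM in mondoa-mis embryos, with a log2 fold change of -1.75 (SE 0.18, edgeR adjusted p = 8.06e-05). USP34, a large ubiquitin-specific protease, was at 69.1, 70.2 and 74.8 CPM in mondoa-mo and 48.6, 44.5 and 44.1 CPM in mondoa-mis embryos, with a log2 fold change of 0.64 (SE 0.06, adjusted p = 5.15e-05). Both were apart in every library.

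The share of genes called went up with transcript length in the ubiquitin and proteasome genes of the name table, from 36.1% of 119 genes in the shortest class of lengths to 41.3% of 121 in the middle class and 46.1% of 115 in the longest. Over all genes it was 27.0%, 34.0% and 36.0% in the same classes, which were bounded at 1922 and 3498 bases. The median level in mondoa-mis embryos rose along these classes too. It was 17.1, 27.9 and 45.7 CPM in the ubiquitin and proteasome genes and 6.97, 21.2 and 29.9 CPM over all genes. Length was not separated from level, and the part of each was not tested. Of the 51 proteasome genes tested, 38 fell in the shortest class, and 14 of these (36.8%) were called.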
